A study of Mus musculus with 6 samples.

Results

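The genes described here are 38 genes of the DNA damage checkpoint and of DNA repair, chosen by name from known pathways. The choice used no measured value as a rule, but it was made with earlier results of these data known. They cover homologous recombination, the Fanconi anaemia pathway, mismatch repair, end joining, base excision and single-strand break repair, and the checkpoint kinases with *Trp53bp1*. A row of the count table was taken when its gene name was one of the 38, and 37 of them were found, at 37 of the 51499 loci in the table. *Fanca* was not analysed here. All 37 passed the filter on low counts, and the lowest count of any of them in any library was 179.

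The data are poly(A) RNA-Seq libraries of a line of WT mouse embryonic fibroblasts (MEFs). These cells were transfected with Scr siRNA, a scrambled control, or with Yme1l siRNA, and both groups were harvested 72 h later as 3 independent cultures. YME1L is a protease of the mitochondrial inner membrane, and the study asked how its loss acts on nucleotide balance and innate immune signalling. Both groups share the same cell line. The labels call it 3T3 immortalized, whereas the methods describe MEFs from *Yme1l* loxP/loxP animals that were immortalized with SV40 large T antigen and expanded as individual clones, and the values given here do not decide between these. Large T antigen binds p53 and the retinoblastoma protein, which limits cells immortalized with it as a model of checkpoint signalling.

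Cells repair broken DNA by copying an intact template (homologous recombination) or by rejoining the ends directly, and they remove damaged bases, mismatches and crosslinks by dedicated pathways. The kinases ATM and ATR sense breaks and stalled replication, and pass the signal to CHEK2 and CHEK1, which hold the cell cycle. Many genes of homologous recombination and of the Fanconi pathway are transcribed mainly in S phase, the time of DNA replication, through E2F factors, whereas end joining is used throughout the cell cycle.

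Levels are given as CPM, the usual scale of counts relative to library size, here after TMM scaling. Changes are log2 fold changes of Yme1l siRNA over Scr from edgeR's quasi-likelihood test, with Benjamini-Hochberg adjustment over all 14499 loci tested, and a gene is called higher or lower at an adjusted p under 0.05. The libraries held 37260605 to 45205207 counts. *Yme1l1*, the targeted gene, had 170.5, 171.3 and 170.6 CPM in the Scr cultures and 31.6, 23.4 and 45.0 CPM in the Yme1l siRNA cultures. It was 0.195-fold the Scr level, a log2 fold change of -2.36 (SE 0.203, adjusted p = 3.8718e-05).

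The cells carried fibroblast markers at high levels, with a summed 34047 to 41240 CPM in Scr and 18303 to 22742 CPM after Yme1l siRNA. Of 9 fibroblast markers tested, 8 were called lower and *Vim* was not called, and *Thy1* had at most 1 count in any library. Against the marker calls in this paragraph, 28.4% of all loci tested were called higher and 29.6% lower. The leukocyte genes *Adgre1* and *Cd3e* were at 0 counts in all 6 libraries, and *Ptprc* had 3 counts in 1 library and 0 in the others. The leukocyte list still summed to 162.7 to 179.6 CPM in Scr and 242.3 to 255.3 CPM after Yme1l siRNA, mostly from *Csf1r*. *Csf1r* was called higher (log2 fold change 0.74). *Cd68*, with 1084 to 2528 counts, and *Lyz2*, with 23 to 72, were not called. The endothelial list summed to 3.56 to 3.98 and 5.45 to 7.21 CPM, and no epithelial marker was tested. Of 3 endothelial markers tested, *Kdr* (log2 fold change 2.57, under 1 CPM in every library) and *Tek* (0.61) were called higher. The part of these marker changes in the results below was not tested. In bulk RNA, a change in the share of cells in a cell-cycle phase or of a cell type and a change of RNA per cell cannot be told apart.

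Most of the 37 genes moved after Yme1l siRNA, and they did so in both directions. Higher genes included most of homologous recombination and the pair *Fancd2* and *Fanci*, led by *Exo1* at 2.63-fold and *Palb2* at 2.57-fold the Scr level. Lower genes included *Fancg*, *Fance* and *Fancc* of the Fanconi core complex, *Lig3*, *Xrcc5*, *Xrcc4* and *Chek2*. In all, 20 genes were called higher (54.1%), 10 were called lower (27.0%) and 7 were not called. Of all loci tested, 28.4% were called higher and 29.6% lower, so the share of higher genes exceeded the background and the share of lower genes was close to it. The median log2 fold change was 0.29, against 0.01 over all loci, and the range was from -0.92 (*Fancg*) to 1.40 (*Exo1*). The 3 cultures of each group did not overlap for 21 higher genes (56.8%, against 31.9% of all loci) and for 10 lower genes (27.0%, against 33.6% of all loci). At least 2-fold changes past the test were seen in 4 genes, all higher (10.8%, against 8.18% of all loci), and in none of the lower genes (against 7.28% of all loci).

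**Figure D1:**
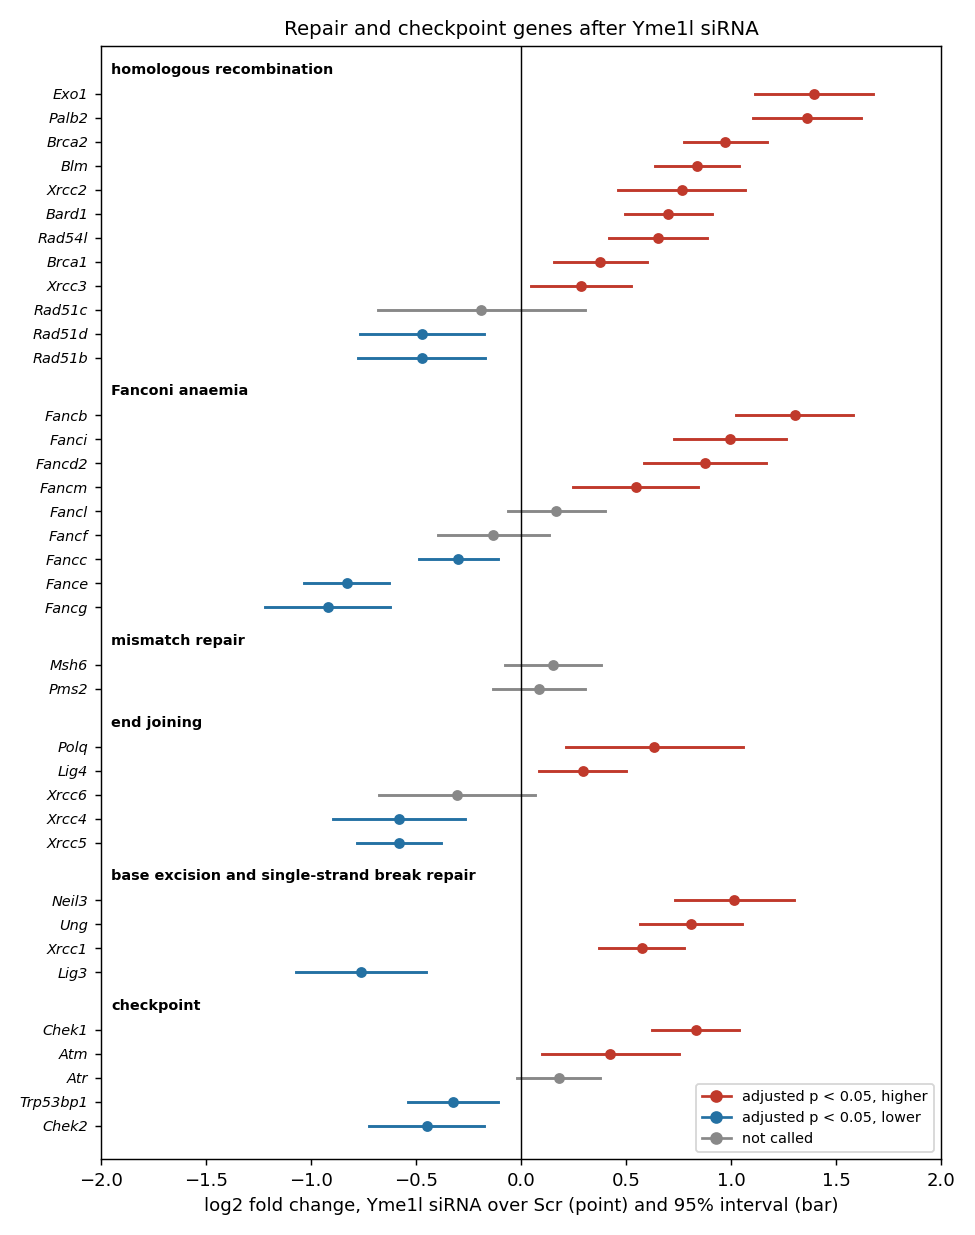
Log2 fold change of Yme1l siRNA over Scr (horizontal axis) for the 37 genes, grouped by role, with points for edgeR estimates and bars for 95% intervals, coloured by call. The 20 higher genes lie mostly in homologous recombination and the Fanconi group, and each role except mismatch repair holds called genes on both sides of 0.

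Among the controls, Scr replicate 3 had the highest level for 29 of the 37 genes, while it was the highest Scr library for 37.9% of all loci tested. The median gene stood at -0.07, -0.05 and 0.13 on the log2 scale relative to the Scr mean in Scr replicates 1, 2 and 3. In Yme1l siRNA replicates 1, 2 and 3 it stood at 0.24, 0.32 and 0.39. Each knockdown culture stood above each control culture on this scale, and the smallest gap was between Scr replicate 3 and Yme1l siRNA replicate 1. Without Scr replicate 3, 18 genes were called higher and 10 lower.

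**Figure D2:**
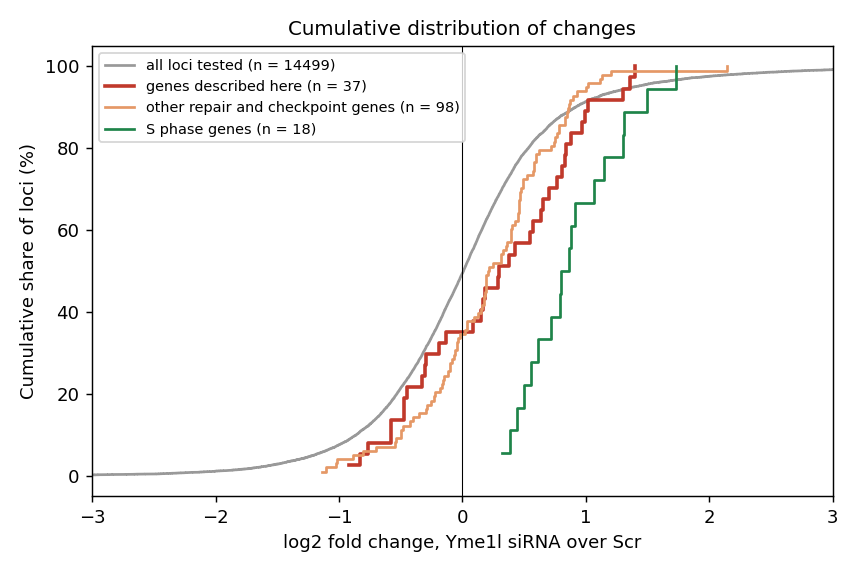
Cumulative share of loci (vertical axis, percent) by log2 fold change of Yme1l siRNA over Scr (horizontal axis), for all 14499 loci tested, the 37 genes, 98 other repair and checkpoint genes and 18 S phase genes. The curve of the 37 genes lies to the right of all loci over most of its range (median 0.29 against 0.01) and to the left of the S phase genes (median 0.83).

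The start regions of these genes were read for short words known from cell-cycle promoters. RefSeq windows from 250 bases before to 50 bases after the start of transcription (build GRCm38.p6) were at hand for 34 of the 38 genes, and not for *Exo1*, *Fancd2*, *Rad51d* and *Xrcc2*. An E2F word, taken as TTTCCCGC, TTTGGCGC, TTTCGCGC or TTTGCCGC on either strand, stood in a window of 7 of the 34 genes (20.6%). It stood in a window of 4.53% of the 10376 tested genes that had one, and of 2.605% of all 27025 genes that had one. A gene with several starts has several windows, and it was counted once. Words that overlap were counted once, since a gene was scored only as holding one or not. The 7 genes were *Bard1* and *Brca2*, called higher, *Chek2* and *Fancg*, called lower, and *Msh6*, *Rad51c* and *Xrcc6*, not called. The stretches around the words are shown because the same word stood before genes that moved in opposite directions. Each is written 5′ to 3′ on the strand of its gene, with the E2F word in capitals.

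Bard1, chr1:71103134-71103221, minus strand: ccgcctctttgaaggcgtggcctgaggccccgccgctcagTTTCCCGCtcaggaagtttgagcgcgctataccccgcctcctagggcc
Brca2, chr5:150522413-150522500, plus strand: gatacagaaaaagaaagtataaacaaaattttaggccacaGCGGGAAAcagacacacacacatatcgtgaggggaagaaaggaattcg
Chek2, chr5:110839791-110839878, plus strand: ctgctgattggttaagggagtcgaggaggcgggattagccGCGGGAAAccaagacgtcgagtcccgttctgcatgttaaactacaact
Fancg, chr4:43010306-43010393, minus strand: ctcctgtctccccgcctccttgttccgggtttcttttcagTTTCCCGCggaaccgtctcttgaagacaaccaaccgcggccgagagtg
Msh6, chr17:87975025-87975079, plus strand: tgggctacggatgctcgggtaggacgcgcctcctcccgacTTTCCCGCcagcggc
Rad51c, chr11:87404925-87404999, minus strand: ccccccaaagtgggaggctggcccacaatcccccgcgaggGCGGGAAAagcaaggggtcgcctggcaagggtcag
Xrcc6, chr15:82016283-82016370, plus strand: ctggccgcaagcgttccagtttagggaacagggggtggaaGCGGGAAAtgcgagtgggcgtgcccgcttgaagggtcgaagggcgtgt

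Read from the RefSeq start, where -1 is the base before it, the first base of the word lay at -209 in *Bard1*, -168 in *Brca2*, -152 in *Chek2*, -52 in *Fancg*, -46 in *Xrcc6* and -5 in the *Rad51c* stretch shown. In *Msh6* it lay at 16, after the start. A further *Rad51c* start held TTTCGCGC at 12. The same 8 letters, TTTCCCGC or its reverse complement GCGGGAAA, made up all 7 words shown. Of genes with a window, the E2F word stood in 2 of 17 called higher (11.8%), 2 of 9 called lower (22.2%) and 3 of 7 not called (42.9%). The word CCAAT or its reverse complement stood in a window of 19 of the 34 genes (55.9%), against 43.2% of tested genes, and TTTGAA, the core of the cell-cycle homology region, in 3 (8.82%), against 14.4% of tested genes. These matches describe letters in a window and are not evidence of binding.

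Homologous recombination genes were mostly higher: 9 of 12 were called higher, 2 lower and 1 was not called, with a median log2 fold change of 0.68. The shares over all loci were 28.4% higher and 29.6% lower. The break is first cut back to single-stranded DNA. *Exo1*, an exonuclease that does this over long stretches (chr1:175880581-175913489, plus strand, GRCm38), had 13.5, 14.3 and 18.1 CPM in Scr and 38.7, 37.6 and 44.5 CPM after Yme1l siRNA. The lowest knockdown culture was above the highest control, and *Exo1* was 2.63-fold higher (log2 fold change 1.40, SE 0.122, adjusted p = 4.1518e-05). *Blm*, the Bloom syndrome helicase that works in resection and in untangling joined DNA molecules, had 18.4, 18.3 and 21.4 CPM in Scr and 36.5, 33.6 and 33.6 CPM after knockdown. Its groups did not overlap either, with a log2 fold change of 0.84 (SE 0.0869, adjusted p = 9.0006e-05).

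BRCA1 with BARD1 forms a ubiquitin ligase that promotes resection, and PALB2 joins BRCA1 to BRCA2. *Brca1* had 117.8, 114.5 and 137.6 CPM in Scr and 161.5, 145.8 and 173.5 CPM after knockdown, without overlap (log2 fold change 0.38, SE 0.0967, adjusted p = 0.0094638). *Bard1* had 12.2, 12.6 and 14.1 CPM against 21.9, 20.02 and 21.3 CPM, a clear separation of the groups, and a log2 fold change of 0.70 (SE 0.0913, adjusted p = 0.0002898). *Palb2* (chr7:122107262-122132985, minus strand) had 4.69, 4.99 and 5.14 CPM in Scr and 11.99, 12.3 and 13.8 CPM after knockdown. The control cultures differed by less than 1 CPM, and *Palb2* was 2.57-fold higher (log2 fold change 1.36, SE 0.112, adjusted p = 3.0827e-05). *Brca2* (chr5:150522630-150570329, plus strand) had 15.4, 15.6 and 17.8 CPM in Scr and 33.6, 31.9 and 30.2 CPM after knockdown. The groups were far apart, at a log2 fold change of 0.97 (SE 0.0864, adjusted p = 4.3421e-05). All 4 genes of this chain were thus higher, by unequal amounts.

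The genes *Rad51b*, *Rad51c*, *Rad51d*, *Xrcc2* and *Xrcc3*, whose products act together in complexes during homologous recombination, split. *Rad51b* had 7.53, 8.34 and 9.12 CPM in Scr and 6.56, 6.05 and 5.39 CPM after knockdown, all below the controls (log2 fold change -0.47, SE 0.132, adjusted p = 0.014168). *Rad51d* (chr11:82876434-82890614, minus strand) had 13.3, 14.4 and 15.5 CPM against 10.5, 8.77 and 11.8 CPM, again without overlap (log2 fold change -0.47, SE 0.129, adjusted p = 0.012724). In the opposite direction, *Xrcc2*, the partner that RAD51D binds, was called higher at a log2 fold change of 0.77 (SE 0.132, adjusted p = 0.0012976), from 12.4 to 17.3 CPM in Scr to 22.4 to 27.0 CPM. *Xrcc3*, the partner of RAD51C, was called higher at 0.28 (SE 0.105, adjusted p = 0.0437), but this call was lost without any one of the 6 libraries and with DESeq2 (adjusted p = 0.052423). *Rad51c* was not called and overlapped, at a log2 fold change of -0.19 with a 95% interval from -0.68 to 0.30, and without Scr replicate 3 its estimate was 0.09. *Rad54l*, a motor protein that moves along DNA during strand exchange, was called higher at 0.65 (SE 0.103, adjusted p = 0.00079067). Its exons share 1184 bases with *Lrrc41* on the other strand, which was called lower (log2 fold change -0.50), and the sources used here do not say whether counting used the strand.

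**Figure D3:**
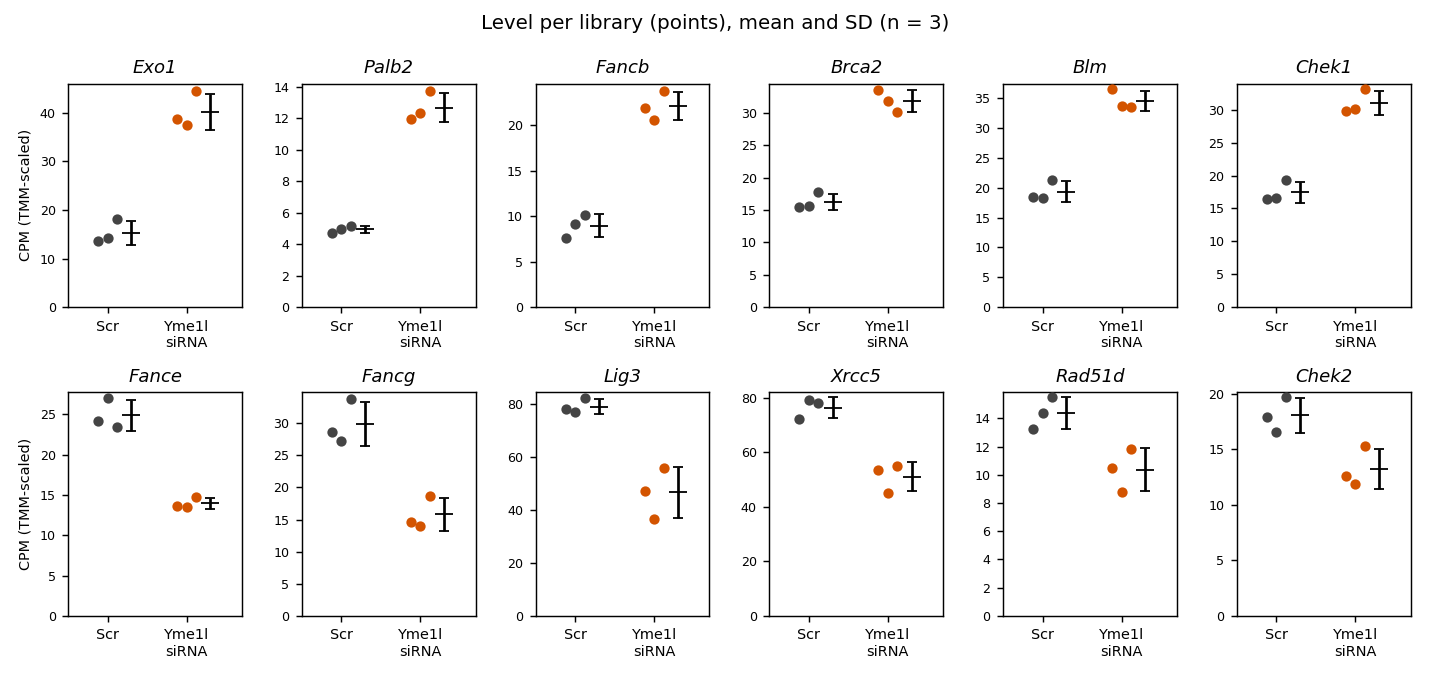
CPM in each library (vertical axis, from 0) for 6 of the genes called higher (top row) and 6 called lower (bottom row), with Scr in grey, Yme1l siRNA in orange, and lines for the mean and SD of 3 cultures. In all 12 genes the groups do not overlap, from *Exo1* (15.3 to 40.3 CPM on average) to *Chek2* (18.1 to 13.2 CPM). The 12 were picked from genes already called, so this is not a result about them. The groups do not overlap in 31.9% (higher) and 33.6% (lower) of all loci tested.

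The Fanconi anaemia genes split within the core complex of the pathway. This complex, a ubiquitin ligase that recognises DNA crosslinks, marks the pair FANCD2 and FANCI, which then guides repair. Of the 9 genes measured, 4 were called higher, 3 lower and 2 were not called, with a median of 0.17. With so few genes this is not set apart from all loci, of which 28.4% were called higher and 29.6% lower. *Fancb*, a core gene on the X chromosome (chrX:164980592-164997272, plus strand), had 7.60, 9.12 and 10.2 CPM in Scr and 21.9, 20.6 and 23.8 CPM after knockdown. It was 2.47-fold higher, with every knockdown culture above all controls (log2 fold change 1.303, SE 0.122, adjusted p = 5.3734e-05). *Fancg* (chr4:43002343-43010506, minus strand), another core gene, had 28.7, 27.2 and 33.8 CPM in Scr and 14.6, 14.0 and 18.8 CPM after knockdown. It had the most negative change of the 37 genes, at 0.528-fold the Scr level (log2 fold change -0.92, SE 0.131, adjusted p = 0.0004613). *Fance* (chr17:28313519-28326572, plus strand), which links the core to FANCD2, had 24.2, 27.1 and 23.4 CPM against 13.7, 13.6 and 14.8 CPM. Its groups were equally apart, at a log2 fold change of -0.83 (SE 0.0888, adjusted p = 0.00010476).

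*Fancc*, the partner of FANCE and FANCF in the core, had 15.3, 16.1 and 15.9 CPM in Scr and 12.7, 12.6 and 13.03 CPM after knockdown. The change was small but without overlap (log2 fold change -0.30, SE 0.0821, adjusted p = 0.013127), and without Yme1l siRNA replicate 1 it was no longer called (adjusted p = 0.055289). *Fancf* had a log2 fold change of -0.13 (95% interval -0.40 to 0.13) and *Fancl*, the ligase subunit, one of 0.17 (95% interval -0.06 to 0.40), and neither was called. *Gas2*, which shares 253 exon bases with *Fancf* on the other strand, was called lower (log2 fold change -0.99). *Fancl* had no overlap of its groups although it was not called, with 10.1 to 10.997 CPM in Scr and 11.047 to 12.8 CPM after knockdown. *Fancm*, the helicase that anchors the core at DNA, was called higher at 0.55 (SE 0.131, adjusted p = 0.0069388).

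Both members of the pair that the core complex marks were higher. *Fanci* had 16.6, 13.8 and 19.3 CPM in Scr and 33.8, 31.5 and 34.0 CPM after knockdown. The groups were well separated although the controls spread, and the log2 fold change was 0.99 (SE 0.118, adjusted p = 0.00017579). *Fancd2* had a log2 fold change of 0.88 (SE 0.128, adjusted p = 0.00053176), from 26.8 to 36.3 CPM in Scr to 49.8 to 59.7 CPM. *Fanci* shares 921 exon bases with *Polg* on the other strand, the mitochondrial DNA polymerase gene, whose log2 fold change was -0.02 (adjusted p = 0.79532).

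The mismatch repair genes *Msh6*, which encodes a protein that recognises mismatches, and *Pms2*, which encodes one that nicks the strand, were not called. Their log2 fold changes were 0.15 (95% interval -0.08 to 0.38) and 0.09 (95% interval -0.13 to 0.31). The groups overlapped in both genes. *Fbxo11*, which shares 34 exon bases with *Msh6* on the other strand, was called lower (log2 fold change -0.47). The *Pms2* locus joins *Gm42421* and *Rsph10b*, so its counts cannot be given to *Pms2* alone, and without Yme1l siRNA replicate 3 its log2 fold change was -0.00407.

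End joining gave 2 higher, 2 lower and 1 uncalled gene of 5, with a median log2 fold change of -0.30. Such small counts do not set it apart from all loci, of which 28.4% were called higher and 29.6% lower. The Ku dimer, XRCC5 (Ku80) and XRCC6 (Ku70), caps broken ends. *Xrcc5* (chr1:72307421-72394952, plus strand) had 72.1, 79.2 and 78.1 CPM in Scr and 53.5, 45.0 and 54.8 CPM after knockdown. All knockdown cultures lay below the controls (log2 fold change -0.58, SE 0.0885, adjusted p = 0.00066276). Levels per kilobase were taken over the merged exons of all transcripts of a gene. On that length *Xrcc5* had the highest Scr level of the 37 genes, at 29.9 CPM per kb, against 25.0 for *Xrcc6*. This order depends on the length used. *Xrcc6* has 4476 merged exon bases but a longest transcript of 3296 bases, whereas *Xrcc5* has 2555 bases by either measure. *Xrcc6* had a log2 fold change of -0.30 (95% interval -0.68 to 0.07, adjusted p = 0.14072) with overlapping groups, since Yme1l siRNA replicate 3 had 113.4 CPM and the other two had 92.2 and 66.8 CPM. Without that replicate *Xrcc6* was called lower (log2 fold change -0.50, adjusted p = 0.008611), and without Yme1l siRNA replicate 2 its log2 fold change was -0.12 (adjusted p = 0.32783). *Desi1*, which shares 344 exon bases with *Xrcc6* on the other strand, was called higher (log2 fold change 0.46).

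The ends are then sealed by ligase IV, which XRCC4 stabilises. *Xrcc4* had 8.62, 8.42 and 9.36 CPM in Scr and 6.15, 4.95 and 6.57 CPM after knockdown, below all controls (log2 fold change -0.58, SE 0.138, adjusted p = 0.0067068). *Tmem167*, which overlaps it by 112 exon bases on the other strand, had a log2 fold change of -0.55. *Lig4* was called higher at 0.29 (SE 0.0908, adjusted p = 0.021799), but lost the call without Scr replicate 2, Scr replicate 3 or Yme1l siRNA replicate 3 (adjusted p up to 0.076176). *Polq*, the polymerase of the alternative, microhomology-based route, was called higher at 0.64 (SE 0.184, adjusted p = 0.016693). It had 16.2, 16.0 and 26.1 CPM in Scr against 27.1 to 33.1 CPM, and lost the call without Scr replicate 1 or 2 (adjusted p up to 0.066369).

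Base excision repair starts with glycosylases that remove a damaged base, and *Neil3* and *Ung* are the 2 glycosylase genes among the 37. *Neil3*, which acts on oxidised bases and on crosslinks at replication forks, had 10.2, 9.28 and 12.3 CPM in Scr and 20.1, 23.8 and 20.3 CPM after knockdown. All knockdown cultures were above the controls, at 2.02-fold (log2 fold change 1.02, SE 0.125, adjusted p = 0.00021363). *Ung*, the uracil glycosylase, had 10.1, 10.3 and 8.32 CPM against 16.8, 16.6 and 17.0 CPM, also without overlap (log2 fold change 0.81, SE 0.107, adjusted p = 0.00031144).

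The last step is nick sealing by ligase III on its scaffold XRCC1, and a mitochondrial form of ligase III is needed to maintain mtDNA. *Xrcc1* was called higher at 0.57 (SE 0.0891, adjusted p = 0.00072251), from 46.6 to 56.6 CPM in Scr to 72.4 to 81.2 CPM. *Lig3* (chr11:82781108-82804274, plus strand) had 78.0, 76.7 and 82.0 CPM in Scr and 47.2, 36.5 and 55.8 CPM after knockdown. The knockdown cultures varied but all lay below the controls (log2 fold change -0.76, SE 0.135, adjusted p = 0.0014783). *Lig3* shares 1826 exon bases with *Rffl* on the other strand, whose log2 fold change was 0.12 (adjusted p = 0.26414). Gene counts do not separate the nuclear and mitochondrial forms of *Lig3*.

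Of the 5 checkpoint genes, 2 were called higher, 2 lower and 1 was not called. Counts this small do not set them apart from all loci, of which 28.4% were called higher and 29.6% lower. *Chek1* (chr9:36708482-36727065, minus strand), the kinase that ATR activates, had 16.4, 16.6 and 19.3 CPM in Scr and 29.9, 30.1 and 33.1 CPM after knockdown. All knockdown cultures exceeded the controls (log2 fold change 0.83, SE 0.0908, adjusted p = 0.00011658). *Chek2* (chr5:110839979-110874145, plus strand), the kinase that ATM activates, had 18.0, 16.5 and 19.7 CPM against 12.6, 11.9 and 15.3 CPM. It was lower without overlap (log2 fold change -0.45, SE 0.120, adjusted p = 0.011706), and without Yme1l siRNA replicate 1 it narrowly missed the threshold (adjusted p = 0.050718).

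*Atr* had 30.2, 29.2 and 32.2 CPM in Scr and 34.7, 31.4 and 37.8 CPM after knockdown. The groups overlapped and it was not called (log2 fold change 0.18, 95% interval -0.02 to 0.38, adjusted p = 0.10624), although without Yme1l siRNA replicate 2 it was called higher (0.25, adjusted p = 0.030919) and without Yme1l siRNA replicate 3 its log2 fold change was 0.11 (adjusted p = 0.30854). *Atm* had 43.8, 39.4 and 60.4 CPM against 65.3, 61.1 and 66.5 CPM. Scr replicate 3 came close to the knockdown cultures, and the call (log2 fold change 0.43, SE 0.143, adjusted p = 0.031027) was lost without any one of Scr replicate 1, Scr replicate 2, Yme1l siRNA replicate 1 or Yme1l siRNA replicate 3 (adjusted p up to 0.10615). *Trp53bp1*, which encodes a protein that binds marked chromatin at breaks and limits resection, had 101.9, 91.5 and 105.6 CPM in Scr and 80.6, 71.0 and 87.2 CPM after knockdown. It was lower without overlap (log2 fold change -0.32, SE 0.0941, adjusted p = 0.016693), but lost the call without Scr replicate 1 (adjusted p = 0.053907). *Tubgcp4*, which shares 2130 exon bases with it on the other strand, was also lower (log2 fold change -0.29).

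Since many of these proteins act as pairs, the counts of 10 partner genes were divided within each library, which removes the scaling between libraries. The pairs were chosen after the values were known, and 3 against 3 cultures cannot give an exact permutation p under 0.1. The *Xrcc1* to *Lig3* count ratio was 0.597, 0.641 and 0.690 in Scr and 1.55, 2.22 and 1.298 after knockdown. It was thus below 1 in every Scr culture and above 1 in every Yme1l siRNA culture. The group means differed by 1.36 on the log2 scale (exact permutation test, two-sided, p = 0.1, adjusted p = 0.1429 over 10 pairs). A count ratio of 1 does not mean equal numbers of transcripts, since the longest transcripts have 2528 (*Xrcc1*) and 5957 bases (*Lig3*). The *Rad51d* to *Xrcc2* count ratio was 1.06, 1.05 and 0.896 in Scr and 0.469, 0.357 and 0.439 after knockdown, a log2 difference of -1.26. The *Chek2* to *Atm* ratio differed by -0.90 and the *Xrcc4* to *Lig4* ratio by -0.88. The *Chek1* to *Atr* ratio was higher by 0.66, *Palb2* to *Brca2* by 0.39 and *Bard1* to *Brca1* by 0.32. In these 7 pairs the groups did not overlap, each with p = 0.1 in the exact permutation test, the smallest value possible. Among single loci the groups did not overlap in 31.9% (higher) and 33.6% (lower) of all tested. No such share was computed for ratios of other genes, so the number of pairs is not read as a result. The *Fanci* to *Fancd2* ratio differed by 0.12 with overlap, as did *Rad51c* to *Xrcc3* (-0.44) and *Xrcc5* to *Xrcc6* (-0.25).

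Other repair and checkpoint genes, listed by role and including nucleotide excision repair, were also called in both directions. Of 98 tested, 49 were called higher, 18 lower and 31 were not called, with a median log2 fold change of 0.21. Against these counts and those by role below, 28.4% of all loci were called higher and 29.6% lower. Other homologous recombination genes were called higher in 18 of 26 cases and lower in 3, other Fanconi genes in 5 and 1 of 9, and other checkpoint genes in 14 and 2 of 20. Of 10 other end joining genes, 1 was called higher and 3 lower, of 14 base excision genes 3 and 4, of 14 nucleotide excision repair genes 7 and 4, and of 5 mismatch repair genes 1 and 1. The smallest adjusted p among higher genes belonged to *Rad51ap1*, a homologous recombination gene, with 24.7, 22.9 and 26.9 CPM in Scr and 56.4, 60.9 and 54.0 CPM after knockdown (log2 fold change 1.20, SE 0.0831). It was followed by *Usp1*, the enzyme that removes ubiquitin from FANCD2 (1.13, SE 0.0871), and *Rpa2*, a subunit of the protein that coats single-stranded DNA (0.86, SE 0.0701). Among lower genes it belonged to *Uvssa*, of transcription-coupled repair (-1.02, SE 0.0870), *Polm*, an end joining polymerase (-1.14, SE 0.101), and *Tdg*, a thymine glycosylase (-0.81, SE 0.0738).

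Genes of DNA replication and of mitosis were higher as well. All 18 S phase genes tested were called higher, with a median of 0.83 and a summed level of 1642 to 1744 CPM in Scr and 2647 to 2871 CPM after knockdown. Of 15 mitosis genes, 10 were called higher and none lower, with a median of 0.58. Known p53 targets did not move one way: of 17 tested, 5 were called higher and 7 lower, with a median of -0.12. For each of these 3 lists, the shares over all loci were 28.4% higher and 29.6% lower. The p53 targets had a summed level of 671.7 to 718.5 CPM in Scr and 666.7 to 737.8 CPM after knockdown. Of these targets, *Cdkn1a*, the gene of the cell-cycle inhibitor p21, had a log2 fold change of -0.46 (adjusted p = 0.014897), and *Mdm2*, the gene of the ligase that degrades p53, one of 0.42 (adjusted p = 0.001104). Both were chosen after their values were seen. The part of this change in the higher repair genes was not tested.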

How the data were processed

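All 6 libraries were used, and their groups come from the sample labels (0 unmapped columns). The authors mapped reads of stranded poly(A) libraries to mm10 (GRCm38) with HISAT2 2.0.4 and assembled transcripts with StringTie 1.3.3, and the counts per locus were deposited by the authors without normalization. The program that counted them, and its use of strand, are not given in the sources used here. Exons of 17 of the 37 genes overlap a gene on the other strand, in 12 of them a gene that was tested. Not all of these are named above. *Fancc*, for instance, shares 1373 exon bases with *Gm16133*, which has no value here. A table of the authors' own comparison (Cuffdiff 2.2.1: group levels, fold changes, statistics, p-values) was not used.

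Loci were filtered with filterByExpr (minimum 10 counts, 15 in total), which left 14499, among them 398 that combine more than 1 gene name. These were fitted by edgeR 4.0.16 (R 4.3.3) with TMM factors of 0.958 to 1.03 and tested with its quasi-likelihood test, with no covariate. The biological coefficient of variation was 0.131. Standard errors and 95% intervals are those of the log2 fold change, and errors between cultures are SD. Intervals cover the spread between the cultures of this experiment. The edgeR, DESeq2 and limma-voom tests were tried on simulated counts, in which far fewer loci changed than were called here. The other steps were not simulated. Alternatives were DESeq2 1.42.0, limma-voom (limma 3.58.1), RLE and upper-quartile factors, looser and stricter count filters, removal of joined or mtDNA loci, a threshold of 0.01, a block for the replicate number, and each library left out in turn. Partner ratios were compared by exact permutation tests.

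Every gene is accounted for by role. Values per library are given for the 12 called genes with the smallest adjusted p, each gene called lower, and *Brca1*, *Brca2*, *Atm*, *Atr*, *Chek1* and *Chek2*. Of the other repair genes, the 3 with the smallest adjusted p in each direction are named. The genes and lists were chosen with earlier results of these data known. Gene coordinates and exon overlaps came from GENCODE M21 on GRCm38, near-identical transcripts were looked for with BLAST 2.17.0 (at least 95% identity over 200 bases; none was found for these genes), and start windows came from RefSeq on GRCm38.p6. No library repeats another: within groups, chi-square per degree of freedom was 10.4 to 75.5. No batch was given in the labels.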

Additional observations from a re-analysis of the deposited data

How the results depend on the processing

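Over 16 alternatives, 557 of 591 single-gene results kept direction and side of the threshold, 30 lost the call, 2 gained one and 2 uncalled genes changed sign: *Rad51c* without Scr replicate 3 (log2 fold change 0.0912, with a range over left-out libraries from -0.34) and *Pms2* without Yme1l siRNA replicate 3 (-0.00407, with a range up to 0.19). All calls and directions were kept in 24 of the 37 genes under every alternative. At an adjusted p under 0.01, 16 genes were higher and 5 lower, in place of 20 and 10. The share of all loci at that threshold is not given here, so these counts are not read as a result about the genes. When each library was left out in turn, 16 to 20 genes were higher and 8 to 11 lower, and the median log2 fold change ran from 0.28 to 0.35. In those fits, 3451 to 4133 of all loci were called higher and 3616 to 4312 lower, of 14705 to 14836 tested. The other alternatives gave 19 or 20 higher and 10 lower genes and medians from 0.28 to 0.34. Replicate numbers were not stated to pair the cultures. Same-numbered cultures deviated with correlations of 0.03, 0.11 and 0.18, and cultures with different numbers with correlations from -0.17 to 0.08. A fit with the replicate block called 19 genes higher and 10 lower, with a median of 0.29 (*Xrcc3* lost its call, adjusted p = 0.058998), and 4227 and 4460 of all loci, against 4123 and 4288. With 3 cultures per group the smallest called change was 0.28 on the log2 scale (*Xrcc3*), while -0.30 in *Xrcc6* was not called, so smaller changes could not be told from the spread between cultures.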

Other observations

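Nucleotide excision repair removes bulky lesions. It is counted among the other repair genes above, and all but *Uvssa* of its genes were left unnamed there. Of its 14 genes, 7 were called higher, 4 lower and 3 were not called, with a median log2 fold change of 0.18. Of all loci, 28.4% were called higher and 29.6% lower. The higher genes included *Ercc8* (log2 fold change 0.78), *Ercc2* (0.72), *Ercc1* (0.43), *Ercc6* (0.19) and *Ercc3* (0.17). Of the damage sensors, *Xpc* had 11.6, 12.03 and 10.8 CPM in Scr and 19.5, 19.8 and 20.03 CPM after Yme1l siRNA (log2 fold change 0.78, SE 0.0840). *Ddb2* had a log2 fold change of 0.89 (SE 0.143), whereas *Ddb1*, its partner, had one of -0.30 (SE 0.0933). *Xpa*, which verifies the lesion, fell from 13.6, 13.6 and 13.5 CPM to 5.64, 6.95 and 6.29 CPM (log2 fold change -1.10, SE 0.111), and *Ercc5*, the nuclease on its 3′ side, had a log2 fold change of -0.49 (SE 0.0794). The names of these genes were chosen after their values were seen.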
